A study of Homo sapiens with 4 samples.

Results

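Monocyte maturation markers and colony-stimulating factor (CSF) receptors were followed probe by probe in THP1 cells given miR-511 or a control mimic. The genes were the monocyte and macrophage antigens CD14, CD68, CD4 and CD93, the maturation antigens CD38, CD34 and ANPEP (CD13), and the receptor chains CSF2RA, CSF2RB and CSF3R. The members are the non-control probes whose gene name in the scanner files is one of these 10 symbols. They are 10 of 27193 gene names and 13 of the 34127 non-control probes on the array, 7 genes with 1 probe and CD34, CSF2RA and CSF2RB with a pair each. Of the 11 probes that could be tested, 0 differed between the treatments at an unadjusted p below 0.05, beside 2.20% of all tested probes. That comparison had no block for the experiment. With the block 1 of the 2 CSF2RB probes passed, beside 3.95% of all tested probes, and none passed after adjustment. The other CSF2RB probe had a mean difference of the opposite sign. Between the experiments, 4 of the 11, for CD38, CD68, CD93 and CSF3R, were lower in the second at the same unadjusted threshold. Of all tested probes, 8.15% were lower and 5.42% higher at this threshold, and none of the 11 passed after adjustment. THP1 is a human monoblastic cell line, grown from an acute myeloid leukemia, that carries the MLL-AF9 fusion gene. Its cells had been transfected with 30 nM of hsa-miR-511-5p mimic or of negative control #1 mimic, and RNA of day 2 was hybridized with a single dye to an Agilent whole genome array. There were 2 independent experiments with 1 array of each treatment in each, hence 2 arrays per treatment and 4 in all. Both groups are transfected cells of 1 cell line, and untransfected cells were not analysed here.

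Monocytes arise from myeloid progenitors that gradually lose stem cell antigens and gain surface receptors for growth factors, bacterial products and dying cells. CSF receptors drive much of this. The GM-CSF receptor joins a ligand-binding alpha chain (CSF2RA) to the common beta chain (CSF2RB), which the receptors for IL-3 and IL-5 also use, and the G-CSF receptor (CSF3R) works as a dimer of one chain. None of them has enzyme activity of its own, and they signal through the kinase JAK2 to STAT proteins. A mimic brings a mature miRNA into the cell as a synthetic duplex, and a miRNA finds its target transcripts mainly by pairing with its seed, bases 2 to 8.

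The mature sequence of the miRNA and the stretches of member probes that contain a match to its seed are shown because a probe with such a match reports on a transcript that contains these letters. The miRNA is on chromosome 10 of GRCh38.p14, plus strand, from 17845122 to 17845142, and its 21 bases are from RefSeq, with the seed in capitals. On this type of array the letters of a probe are those of the transcript. The reverse complement of the seed, AAAGACA, was searched in the probe letters on this strand only.
hsa-miR-511-5p: gUGUCUUUugcucugcaguca
CD68 probe, 30 of its 60 bases: gcaactggctcAAAGACAatgttattttcc
CD93 probe, 30 of its 60 bases: ttcactaatcAAAGACActattttcatact

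The capitals in the CD68 and CD93 stretches mark the match. The 7 letters were found in 2 of the 13 member probes and in 331 of all 34127 probes (0.97%), and the 6 letters AAGACA, which pair with bases 2 to 7, in the same 2 member probes and in 966 of all probes (2.83%). In CD68 the match is followed by an A, and the 8 letters AAAGACAA were present in 105 probes of the array (0.308%). The other 11 member probes held neither stretch. A match is a description of these letters and does not show a target site, and where in its transcript a probe lies was not analysed here.

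CSF2RB and CD38 are the members on which the results below turn most, and the first 30 of the 60 bases of their probes are given to identify them. No base is singled out in them. The CSF2RB probes start 210 bases apart on chromosome 22 and leave 150 bases between them, and both have 55% G and C. The CD38 probe has 45%.
CSF2RB probe A_33_P3341442: tgagatcaagaacctagaccaggcttttca
CSF2RB probe A_23_P120899: cctgaccttcctcagtcatttctgcaaagc
CD38 probe A_23_P167328: tgaaaaatcctgaggattcatcttgcacat

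Expression values are log2 intensities after quantile normalization, and each member probe is printed once per array. The scanner software flags each spot as well above background or not, and 64.8% to 69.3% of the probes had this flag per array. A probe was tested when both arrays of at least 1 treatment had the flag, which left 22638 probes. Of the 13 member probes, 11 were tested and had the flag on all 4 arrays; both CD34 probes were not tested. The cells carried the markers of monoblasts: PTPRC, SPI1, CD33, MPO, AZU1 and HOXA9 were well above background on all arrays, 6 of the 7 listed genes analysed, with summed intensities between 134300 and 162000. MEIS1 had the flag in experiment 1 only, by 1 probe, its other probe had it on no array, and LYZ was not analysed here. Genes of the lists for other cell types were in part detected too. Of the T cell list, summing to 136 to 183, CD3D and CD8A had the flag on all 4 arrays, CD2 and CD3E on 3, and CD3G on none. CDH5 and VWF of the endothelial list (63.4 to 93.2) and CAMP of the late neutrophil list (145 to 179) had it on all 4, whereas KDR, LTF, CEACAM8 and MMP8 had it on none. GP9 and ITGA2B of the megakaryocyte list (1927 to 2819) had it on all 4 as well. On bulk arrays, fewer cells that express a gene and less RNA per cell cannot be told apart.

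**Figure D1:**
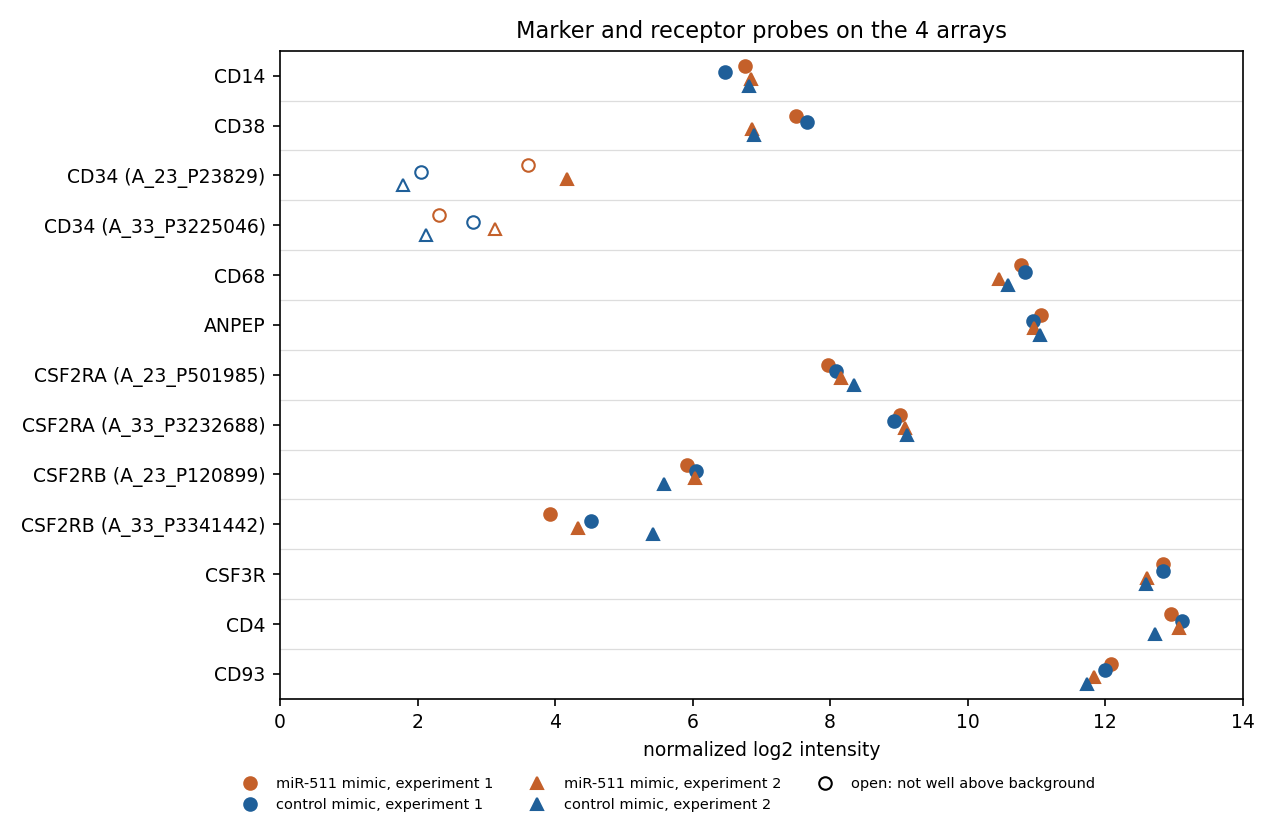
Normalized log2 intensity (x axis) of the 13 probes (y axis) on each of the 4 arrays, 1 point per array, with treatments by colour and experiments by shape. Open points, not well above background, are found for CD34 alone, and in the CD38 row the experiments stand apart while the treatments do not.

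Treatment was compared with limma on the log2 scale, with the treatment as the only term, because no other is given in the methods. At an unadjusted p below 0.05, the threshold of the study, 0 of the 11 tested member probes passed, beside 498 of 22638 tested probes (2.20%). With the experiment as a block, which pairs the arrays, 1 of the 11 passed, a CSF2RB probe, beside 3.95% of all tested probes. After Benjamini-Hochberg adjustment limma called 0 probes of the whole table (0%), and the smallest adjusted p was 0.790. A test of each averaged probe without moderated variances called 708 probes before adjustment and 0 after it, none of them a member. The smallest p that an exact two-sided permutation test can give with 2 arrays against 2 is 0.333. Each member is therefore described by its values, the log2 fold change (log2FC, miR-511 mimic minus control mimic), its standard error (SE) and the 95% interval from limma. Because the experiment is not in this fit, a probe that differs between experiments has a wide interval.

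CD14, the co-receptor through which monocytes sense lipopolysaccharide, was read on chromosome 5 from 140011318 to 140011377 in hg19. The normalized log2 value was 6.76 under miR-511 mimic and 6.47 under control mimic in experiment 1, and 6.85 and 6.81 in experiment 2. The control array of experiment 1 was the lowest, the other 3 arrays lay close together, and the treatment groups overlapped. The log2FC was 0.16 (SE 0.151), with an interval from -0.25 to 0.57, and it came mainly from experiment 1, where the difference was 0.29 against 0.033 in experiment 2.

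CD38, an ectoenzyme that consumes NAD and marks maturing myeloid cells, is 1 of the 2 surface antigens that the study followed as differentiation markers by flow cytometry. The study reported a higher surface CD38 signal with miR-511 mimic than with both control mimics, growing with time. The values here are RNA of day 2. The probe lies on chromosome 4 of hg19 from 15850185 to 15850244. It gave 7.50 under miR-511 mimic and 7.66 under control mimic in experiment 1, and 6.87 and 6.90 in experiment 2. Within each experiment the miR-511 array was the lower one, by 0.16 and by 0.030, and both arrays of experiment 1 were above both of experiment 2. For the treatments the log2FC was -0.094 (SE 0.356), and its interval reached from -1.07 to 0.88. With the experiment number as a block the SE was 0.0854 and the interval -0.37 to 0.18, still on both sides of 0.

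The other antigen of the study's flow cytometry, CD11b, is encoded by ITGAM, an integrin chain of maturing myeloid cells. The study found its surface signal not above the isotype control in any treatment. ITGAM is printed 10 times per array and was well above background on all 4. Its mean over these spots was 7.47 on both arrays of experiment 1, and 7.41 under miR-511 mimic and 7.28 under control mimic in experiment 2. The log2FC was 0.068 (SE 0.112), between -0.24 and 0.38.

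CD34, a sialomucin of hematopoietic stem and progenitor cells, has 2 probes, with starts 1423 bases apart on chromosome 1. Probe A_23_P23829 (208060609 to 208060668 in hg19) was well above background on 1 of the 4 arrays, miR-511 mimic of experiment 2. It had normalized log2 values of 3.61 under miR-511 mimic and 2.05 under control mimic in experiment 1, and of 4.17 and 1.79 in experiment 2. Both miR-511 arrays were above both control arrays. Groups that do not overlap, in either direction, were seen in 25.7% of the tested probes, of which this is not one. No fold is given, because 3 of these 4 values were not well above background, that of miR-511 mimic in experiment 1 among them. The intensities were 10.2 and 19.3 units under miR-511 mimic against 4.78 and 3.33 under control mimic. Without the filter on dim probes it passed the unadjusted threshold, as did 1029 of 34083 probes (3.02%) in that setting, and it did not pass after adjustment.

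Probe A_33_P3225046 of CD34 (208062032 to 208062091) was well above background on no array. The values were 2.31 under miR-511 mimic and 2.81 under control mimic in experiment 1, and 3.13 and 2.12 in experiment 2, so that the order of the treatments was opposite in the 2 experiments. Probes printed 10 times near this level varied within an array by a median SD of 0.583, as did those near the level of the other CD34 probe by 0.559. No fold is given for it either.

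CD68, a glycoprotein of endosomes and lysosomes that is used as a macrophage marker, was measured on chromosome 17 from 7484879 to 7484938 in hg19, by the probe that carries the seed match shown above. The values were 10.77 under miR-511 mimic and 10.84 under control mimic in experiment 1, and 10.46 and 10.58 in experiment 2. The miR-511 array was lower in each experiment, by 0.071 and 0.12, and the treatment groups overlapped. The log2FC was -0.094 (SE 0.166, interval -0.55 to 0.36).

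CD93, a C-type lectin-like receptor of monocytes, endothelium and early progenitors, carries the other match. On chromosome 20, from 23060518 to 23060577 in hg19, it gave 12.09 under miR-511 mimic and 12.00 under control mimic in experiment 1, and 11.83 and 11.73 in experiment 2. Here the miR-511 array was the higher one in each experiment, by 0.092 and 0.10. With a log2FC of 0.096 (SE 0.156, interval -0.33 to 0.52), CD93 and CD68 had differences of opposite sign, neither of them past the threshold.

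ANPEP (CD13), an aminopeptidase on granulocytes and monocytes, was read by a probe whose coordinates run from 90333766 to 90334236 on chromosome 15, longer than its 60 bases. The 4 arrays lay within a narrow range, 11.06 under miR-511 mimic and 10.95 under control mimic in experiment 1, and 10.97 and 11.05 in experiment 2. The direction turned between the experiments, and the log2FC was 0.019 (SE 0.101). This was the narrowest interval among the tested members, from -0.26 to 0.30.

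CD4, a co-receptor of helper T cells that monocytes also carry, was measured on chromosome 12 from 6929910 to 6929969 in hg19. Its values were 12.96 under miR-511 mimic and 13.11 under control mimic in experiment 1, and 13.07 and 12.73 in experiment 2. The control arrays were both the highest and the lowest of the 4. The log2FC was 0.093 (SE 0.163, interval -0.35 to 0.54), made of a difference of -0.15 in experiment 1 and of 0.34 in experiment 2. The CD4 probe had 6910 to 9540 units of intensity, while the probes of the T cell list together summed to 136 to 183. T cell genes were partly detected on these arrays of 1 cell line, as given above, and their part in the CD4 values was not tested.

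Among the CSF receptors, CSF3R, the receptor of G-CSF, differed least between the treatments. Its probe on chromosome 1 (36931696 to 36931755 in hg19) had 12.84 under either mimic in experiment 1, and 12.61 under miR-511 mimic and 12.60 under control mimic in experiment 2. The arrays therefore separated by experiment. The treatment log2FC was 0.0087 (SE 0.143, interval -0.38 to 0.40).

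CSF2RA, the chain that binds GM-CSF, was read by 2 probes whose starts are 21360 bases apart on chromosome X. Probe A_23_P501985 (1407773 to 1409280) gave 7.97 under miR-511 mimic and 8.08 under control mimic in experiment 1, and 8.15 and 8.35 in experiment 2. It was lower with miR-511 in each experiment, by 0.11 and by 0.20, and the groups overlapped. The log2FC was -0.16 (SE 0.143, interval -0.55 to 0.24), and it lay between -0.29 without control mimic replicate 1 and -0.022 without control mimic replicate 2. Probe A_33_P3232688 (1429133 to 1429192), which the files assign to an Ensembl transcript of the same gene, gave 9.01 and 8.92 in experiment 1, miR-511 mimic first, and 9.08 and 9.12 in experiment 2. Its log2FC was 0.026 (SE 0.114, interval -0.29 to 0.34), and its direction turned between the experiments.

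CSF2RB, the common beta chain, had the largest treatment difference of the tested members, in 1 of its 2 probes. Probe A_33_P3341442 (chromosome 22, 37334388 to 37334447 in hg19) gave 3.93 under miR-511 mimic and 4.52 under control mimic in experiment 1, and 4.33 and 5.42 in experiment 2. Both miR-511 arrays were below both control arrays. Such separation was seen in 1 of the 11 tested member probes and in 25.7% of all tested probes. The log2FC was -0.84 (SE 0.355, interval -1.81 to 0.13), a level of 0.558 of the control, with differences of -0.59 and -1.09 in experiments 1 and 2. It did not pass the unadjusted threshold. With the experiment as a block it passed, with an interval from -1.37 to -0.31 (adjusted p = 0.969, limma with Benjamini-Hochberg adjustment). The size depended on single arrays and on the background correction. It was -1.31, past the unadjusted threshold, without control mimic replicate 1, and -0.39, not past it, without control mimic replicate 2. After normexp background correction, which adds 50 units to each intensity and so shrinks differences of dim probes, it was -0.27, not past the threshold.

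Probe A_23_P120899 of CSF2RB (37334598 to 37334657) did not show this. It gave 5.92 under miR-511 mimic and 6.05 under control mimic in experiment 1, and 6.03 and 5.58 in experiment 2. The control arrays were the highest and the lowest, and the log2FC was 0.16 (SE 0.189, interval -0.36 to 0.67), with -0.13 in experiment 1 and 0.45 in experiment 2. In experiment 2 the 2 probes of 1 gene therefore moved in opposite directions by 0.45 and -1.09. Whether one of them binds another transcript or reads another isoform was not tested, so that neither difference can be taken as that of the gene. The probe with the lower values had 12.8 to 42.1 units of intensity and the other 47.1 to 71.8. Within an array, probes printed 10 times varied by a median SD of 0.232 near the level of the former and of 0.127 near that of the latter.

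**Figure D2:**
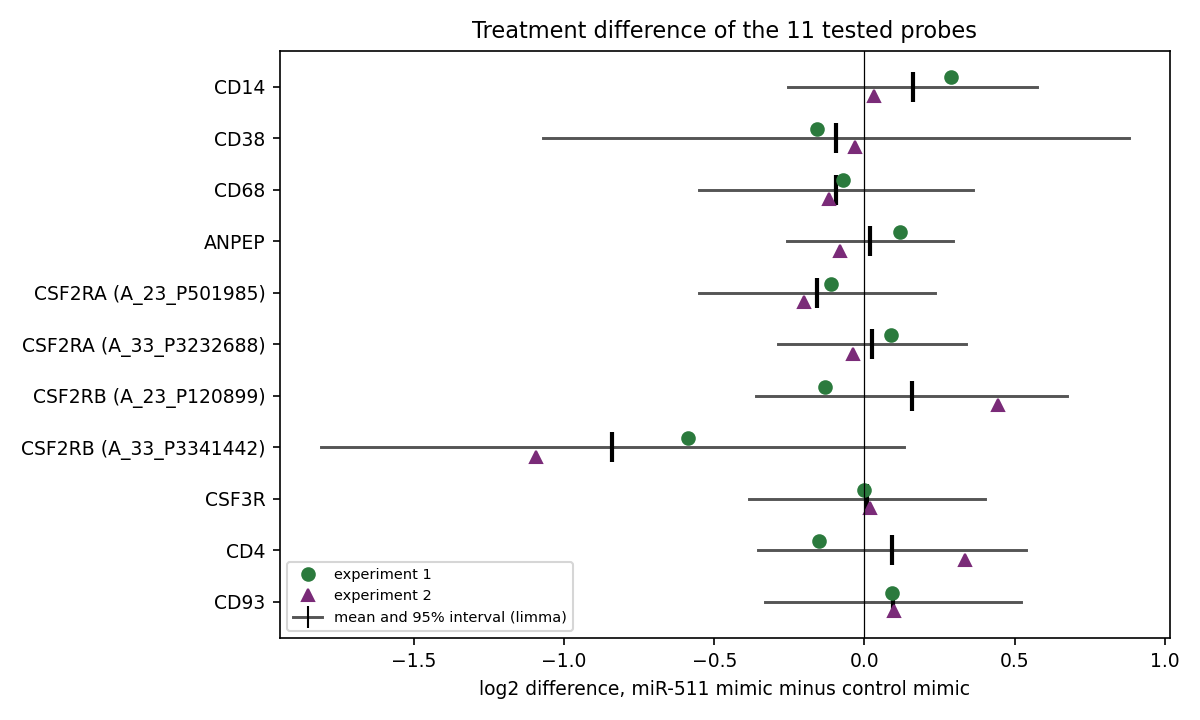
Log2 difference, miR-511 minus control (x axis), of the 11 tested probes (y axis), with each experiment as a point and the mean with its 95% interval from limma as a line. Every interval includes 0, and CSF2RB probe A_33_P3341442, at -0.59 and -1.09, stands apart from the other CSF2RB probe, at -0.13 and 0.45.

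Over the 11 tested probes, 7 were higher and 4 lower with miR-511 mimic, with a median log2FC of 0.019. Over all tested probes 53.7% were higher and the median was 0.0098. The difference had the same sign in both experiments for 7 of the 11, beside 51.0% of all tested probes. These were CD14, CD93 and CSF3R, which were higher, and CD38, CD68, 1 CSF2RA probe and 1 CSF2RB probe, which were lower. With 1 array left out, 9 of the 11 changed sign in at least 1 of the 4 fits. CSF2RA probe A_23_P501985 and CSF2RB probe A_33_P3341442 did not. For 9 of the 11 probes the difference between experiments was larger than that between treatments, which held for 62.0% of all tested probes.

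The experiments were compared in the same way, with the experiment number in place of the treatment. The 2 arrays of an experiment are 1 of each treatment, so the spread in this fit is that between treatments, not between replicates. Of the 11 tested member probes, 4 passed the unadjusted threshold, beside 13.6% of all tested probes, and all 4 were lower in experiment 2, beside 8.15% of all tested probes that passed in this direction and 5.42% in the other. After Benjamini-Hochberg adjustment limma called 0 of 22638 probes (0%). Both arrays of an experiment were above both of the other in 7 of the 11, beside 48.9% of all tested probes. Besides the 4, these were CD14 and both CSF2RA probes, all higher in experiment 2. With 1 array left out, an experiment holds 1 array, and of the 4 only CD38 kept passing in each such fit. The sizes from these fits are given below.

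CD38 had the largest of these falls. Its mean was 7.58 ± 0.111 (SD, n = 2) in experiment 1 and 6.88 ± 0.0213 (SD, n = 2) in experiment 2, a level of 0.616. Each SD is over 1 miR-511 and 1 control array. The log2 difference was -0.70 (SE 0.087, Benjamini-Hochberg adjusted p = 0.218 in limma). It was seen in both treatments, at -0.64 between the miR-511 arrays and -0.76 between the control arrays. Without any 1 array it lay between -0.78 and -0.62 and passed the unadjusted threshold in all 4 fits. After normexp background correction it was smaller, -0.42, and passed as well.

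The other 3 falls were smaller and passed less often. CD68 differed by -0.29 (SE 0.0816), a level of 0.820, with -0.31 on the miR-511 arrays and -0.26 on the control arrays. It was between -0.34 and -0.23 with 1 array left out and passed the threshold in 1 of these 4 fits, the one without control mimic replicate 2. CD93 differed by -0.26 (SE 0.0813), a level of 0.834, and CSF3R by -0.23 (SE 0.0659), a level of 0.853, each by nearly the same amount in both treatments. With any 1 array left out neither passed, at -0.31 to -0.21 for CD93 and -0.24 to -0.22 for CSF3R. CD93 did not pass with scaling to the 75th percentile either, at -0.24, nor did CSF3R with the treatment as a block.

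**Figure D3:**
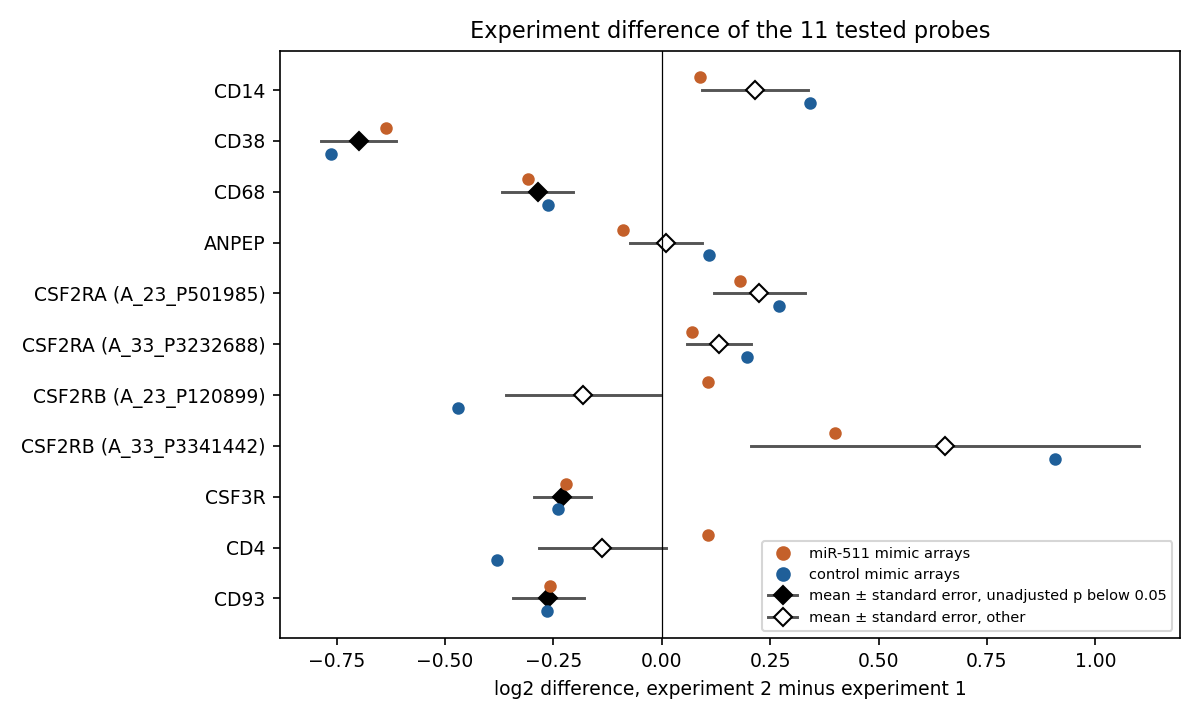
Log2 difference between experiment 2 and experiment 1 (x axis) of the 11 tested probes (y axis), with the arrays of each treatment as points and the limma mean ± standard error as a diamond with a line. Filled diamonds passed an unadjusted p below 0.05, and CD38, at -0.64 and -0.76, has the largest fall.

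The other members did not pass in this comparison. The log2 difference between experiments was 0.21 (SE 0.122) for CD14, and 0.23 (SE 0.105) and 0.13 (SE 0.074) for the CSF2RA probes. ANPEP stood at 0.0089 (SE 0.0829) and CD4 at -0.14 (SE 0.146). Of the CSF2RB probes, A_33_P3341442 was at 0.65 (SE 0.447) and A_23_P120899 at -0.18 (SE 0.178), so that these also had opposite signs here. The former ranged from 0.10 without control mimic replicate 2 to 1.20 without miR-511 mimic replicate 2, and was 0.17 after normexp background correction.

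The ligands and relatives of the CSF receptors formed a list of 15 genes with 21 probes. The genes of GM-CSF (CSF2), G-CSF (CSF3), IL-3 and IL-5 were well above background on no array, and neither were IL34 and IL5RA. CSF1, the ligand of CSF1R, and the receptors CSF1R, IL3RA, FLT3 and EPOR were among the 7 genes with a tested probe, as were the ligands KITLG and FLT3LG. Of the 8 tested probes 5 were higher and 3 lower with miR-511 mimic, with a median log2FC of 0.051, and 0 passed the unadjusted threshold. CSF1R, the receptor of M-CSF that marks the monocyte lineage, had 11.26 under miR-511 mimic and 11.22 under control mimic in experiment 1, and 11.04 and 10.94 in experiment 2. It did not pass between treatments (log2FC 0.069, SE 0.15) in the fit without a block, whose spread includes the difference between experiments. It was 0.25 lower in experiment 2, past the unadjusted threshold. CSF1R was picked out after its values were seen.

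Downstream of the receptors, all 20 listed signalling genes, with 25 probes, were tested. Of these probes, 16 were higher and 9 lower with miR-511 mimic, the median log2FC was 0.013, and 0 passed. The kinase JAK2 had a log2FC of 0.082 (SE 0.17), STAT5A of 0.066 (SE 0.129) and STAT5B of 0.0013 (SE 0.0898). These 3 genes were also chosen after their values were seen, as the core of the pathway.

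Of 25 further monocyte and macrophage genes, 22 were analysed, and 18 of them had a tested probe. With miR-511 mimic 11 of the 20 tested probes were higher, 9 were lower and 0 passed, with a median log2FC of 0.054. FCGR1A, LYZ and MRC1 were not analysed here. Of 16 progenitor and early myeloid genes, 3 of the 11 tested probes were higher and 8 lower, with a median log2FC of -0.041, and again 0 passed. Over all tested probes 53.7% were higher, and whether a list differs from this share was not tested. PROM1, the stem cell antigen CD133, had a value between 1.52 and 1.95 on every array and the flag on none.

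Partners and relatives of the 10 antigens, such as the enzyme BST1 that is related to CD38, the lysosomal LAMP proteins related to CD68 and the receptor TLR4 that works with CD14, had 19 tested probes, 9 higher and 10 lower, with a median log2FC of -0.0088. One passed the unadjusted threshold, that of CD248 (endosialin), a surface glycoprotein of stromal cells related to CD93. CD248 gave 4.73 under miR-511 mimic and 4.14 under control mimic in experiment 1, and 4.65 and 4.12 in experiment 2. The groups did not overlap and the log2FC was 0.56 (SE 0.092, Benjamini-Hochberg adjusted p = 1.00 in limma). With 17.0 to 27.4 units of intensity the probe lay near background. After normexp background correction, which adds 50 units to each intensity and so shrinks differences of dim probes, it did not pass.

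**Figure D4:**
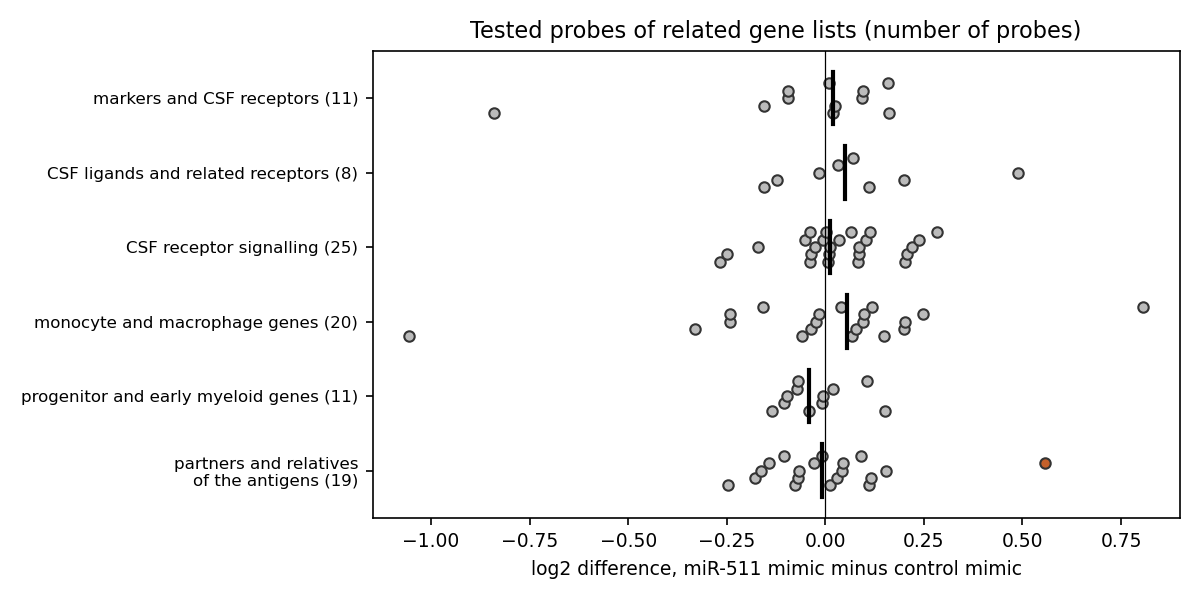
Log2 difference, miR-511 minus control (x axis), of each tested probe, 1 point per probe, for the members and 5 lists of related genes (y axis, number of tested probes in brackets), with a bar at the median. The coloured point is CD248, at 0.56, the only probe of these lists past an unadjusted p below 0.05.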

How the data were processed

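Transcripts of THP1 cells were measured on 4 single-dye Agilent arrays. The authors deposited 1 scanner file per array, whose processed intensities had background and spatial trend removed on each array, and a table of log2 values in the same rank order as the scanner values. The file headers name Feature Extraction 10.7.3.1, and the submitters' processing notes list Feature Extraction 10.5.1.1 and limma. Probe coordinates are those of hg19 in the files. Of the 13 member probes, 12 matched a RefSeq gene by accession, each with the same name.

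The log2 of the processed intensity of 43118 non-control spots was taken, 232 to 301 marked spots per array were left out, no spot was saturated, and arrays were quantile normalized and spots of a probe averaged. A probe printed 10 times was well above background when more than 50% of its spots were. lmFit and eBayes of limma 3.58.1 in R 4.3.3 were run on 22638 of 34127 probes (4.14 total degrees of freedom), two-sided, with Benjamini-Hochberg adjustment over all of them. The functions were tested on simulated data. Bounds for dim probes took, per array, the larger of 2 values, that of the dim probe and the lowest of any probe well above background. Figures were drawn with matplotlib 3.10.9.

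Groups and experiment numbers are those of the labels. The number pairs the arrays: deviations from the treatment means of arrays with the same number had a correlation of 0.271 across probes. All arrays share 1 slide and scan, so no slide block was run. P-values measure the spread between these arrays, and the number of arrays limits the precision. The probes named are all probes of the 10 genes, ITGAM, and up to 3 probes per list past the unadjusted threshold. Members and lists were chosen with earlier results of these data known. Alternatives were scaling to the 75th percentile, normexp (offset 50) for the background, dropping the filter on dim probes or asking for all 4 arrays, the marked spots put back, the log2 table of the authors, an eBayes trend on intensity, a test without moderated variances, the replicate block, and fits without 1 array. The marker lists for B cells and erythroid cells are not reported here.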

Additional observations from a re-analysis of the deposited data

How the results depend on the processing

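No treatment difference of a tested member passed after adjustment in any setting. Of 143 treatment values of single members under an alternative, 125 kept their direction and side of the threshold, 16 changed sign and 2 passed, both for CSF2RB; of 143 values between experiments, 119 kept theirs, 15 no longer passed, 4 newly passed and 5 changed sign. Without the filter on dim probes 1 member probe passed, beside 3.02% of all probes. It was that of CD34, which is well above background on 1 array and on neither control array. With the experiment number as a replicate block 1 passed, CSF2RB probe A_33_P3341442 (log2FC -0.84), and 894 of all tested probes did, against 498. The block changed no other call among the members. With the treatment as a block between experiments CSF3R no longer passed and CSF2RB probe A_33_P3341442 did (0.65). In that fit 11.6% of all tested probes passed, against 13.6% without the block. Between experiments, a test without moderated variances called 2 members (CD38 and CSF3R) in place of 4, beside 11.3% of all tested probes. Scaling to the 75th percentile called 3 members (CD38, CD68 and CSF3R), beside 14.1% of all tested probes. After normexp background correction the sign turned for ANPEP between treatments (-0.025) and for CD4 between experiments (0.014), and other members came closer to 0: between treatments CSF2RB probe A_33_P3341442 (-0.27), CSF2RB probe A_23_P120899 (0.034), CD14 (0.11), CD4 (0.027), CSF2RA probe A_23_P501985 (-0.10) and CSF2RA probe A_33_P3232688 (0.011), and between experiments CD38 (-0.42), CD14 (0.11), both CSF2RA probes (0.14 and 0.080) and both CSF2RB probes (0.17 and -0.0074). Normexp here adds an offset of 50 units to each intensity, above the 12.8 to 42.1 units of CSF2RB probe A_33_P3341442. Such an offset by itself shrinks the log2 differences of dim probes. How much of each change comes from it was not tested, nor was any other cause.

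With 1 array left out, a group holds 1 array, so only sizes are given here. CD34 probe A_23_P23829 entered these fits only without miR-511 mimic replicate 1. Its 1 array well above background was then the whole miR-511 group, so its value is not given. The treatment log2FC was -0.036 to 0.072 for ANPEP, -0.011 to 0.33 for CD14, -0.47 to 0.29 for CD38, -0.097 to 0.29 for CD4, -0.25 to 0.061 for CD68, -0.037 to 0.23 for CD93, -0.29 to -0.022 for CSF2RA probe A_23_P501985, -0.074 to 0.12 for CSF2RA probe A_33_P3232688, -1.31 to -0.39 for CSF2RB probe A_33_P3341442, -0.075 to 0.39 for CSF2RB probe A_23_P120899 and -0.11 to 0.13 for CSF3R. The difference between experiments was -0.052 to 0.068 for ANPEP, -0.30 to 0.030 for CD4, -0.41 to 0.040 for CSF2RB probe A_23_P120899, 0.10 to 1.20 for CSF2RB probe A_33_P3341442, 0.071 to 0.36 for CD14, 0.13 to 0.33 for CSF2RA probe A_23_P501985 and 0.090 to 0.17 for CSF2RA probe A_33_P3232688.

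In the lists, the number of probes past the unadjusted threshold between treatments was 0 to 1 for CSF ligands and related receptors, 0 to 2 for CSF receptor signalling, 0 to 3 for monocyte and macrophage genes, 1 to 3 for the partners and relatives and 0 in all 4 fits for the progenitor genes with 1 array left out, highest without control mimic replicate 2 for the CSF ligands and the monocyte genes and without miR-511 mimic replicate 2 for signalling and partners. With the replicate block it was 1 (CSF1), 1 (SOCS3), 1 (CD86) and 1 (CD248). Normexp gave 1 for signalling, 1 for monocyte genes and 0 for partners. The test without moderated variances gave 2 for signalling and 2 for monocyte genes, and no filter on dim probes gave 1 for CSF ligands and 2 for monocyte genes.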

Other observations

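Some genes of the lists differed between the experiments, and those named here were chosen after their values were seen. KITLG, the ligand of KIT, was 0.46 higher on the log2 scale in experiment 2, past limma's unadjusted threshold, with values of 8.93 and 8.92 in experiment 1 and 9.41 and 9.36 in experiment 2, miR-511 mimic first. Of KIT itself, only probe A_23_P110253 was well above background on both arrays of experiment 1 and on neither of experiment 2. Its other probes were well above background on no array. Probe A_23_P110253 had 4.51 and 4.76 in experiment 1 and 3.17 and 3.27 in experiment 2. It was at least 2.43-fold higher in experiment 1 when the dim arrays are set to the lowest level of probes well above background. MEIS1, a transcription factor of early myeloid cells, had the same pattern in probe A_24_P319736, with 4.25 and 4.14 against 1.92 and 2.53, at least 1.80-fold. With 16.1 and 19.7 units in experiment 1 this probe lay near background. Both folds rest on the level to which the dim arrays are set. The other MEIS1 probe was well above background on no array. Detection on both arrays of experiment 1 and neither of experiment 2 was found for 95 probes of the array and the opposite order for 65.

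Of the genes related to the members, BST1 was 0.33 lower in experiment 2 on the log2 scale, past the unadjusted threshold as CD38 was, with 12.35 and 12.45 against 12.06 and 12.09. LAG3, related to CD4, fell by 0.41, from 6.08 and 6.10 to 5.67 and 5.67. CD86, a costimulatory protein of antigen-presenting cells, was 0.67 higher, with 6.93 and 7.19 in experiment 1 and 7.53 and 7.92 in experiment 2, and so was LY96, the partner of TLR4, by 0.57. None of them passed Benjamini-Hochberg adjustment.

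CSF1 and STAT3 were also chosen after their values were seen. Each had 2 tested probes, and all 4 were higher with miR-511 mimic in both experiments. The tested probes of SOS1 and CCR2 had this pattern as well, and both HOXA9 probes were lower in both experiments. The sign was the same in both experiments for 51.0% of all tested probes. For CSF1 the log2FC was 0.49 (SE 0.216) and 0.20 (SE 0.113), and for STAT3 0.24 (SE 0.0972) and 0.22 (SE 0.0966). None of the 4 passed the unadjusted threshold. With the experiment number as a replicate block 1 of them did, the CSF1 probe with the larger difference.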
